A study of Mus musculus with 126 samples.

Results

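The Kcnq1 imprinted domain is a cluster of genes on distal mouse chromosome 7, and 8 of its genes were followed here among the 23420 genes of a deposited RNA-seq count table. They are the long noncoding RNA Kcnq1ot1 and the protein-coding genes Kcnq1, Cdkn1c, Phlda2, Slc22a18, Ascl2, Tssc4 and Cd81, and they were found by an exact match of the gene symbol, which all 8 had. The 8 libraries were made from total RNA, depleted of ribosomal RNA, of mouse embryonic stem cells, in 4 groups of 2 libraries. Wild type (WT) cells were of the J1 line, and triple knockout (TKO) cells are Dnmt1-/-, Dnmt3a-/- and Dnmt3b-/-, so they lack the enzymes that set and maintain DNA methylation. Cells of each genotype were grown on gelatin in serum with leukaemia inhibitory factor and were kept for 36 h in Trichostatin A (TSA, an inhibitor of histone deacetylases, labelled 5 ng/µl) or in 0.0033% DMSO, its solvent. Whether the TKO cells come from a single clone is not given in the sources used here, so genotype and line cannot be told apart. The series' design text calls the libraries of a group biological replicates without saying that they came from separate cultures, so p-values measure the spread between these libraries, which may be technical.

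In an imprinted domain, genes are read mainly from the copy inherited from a given parent. Kcnq1ot1 starts at a CpG-rich imprinting control region inside an intron of Kcnq1. That region carries DNA methylation on the maternal copy, where the RNA is silent, and lacks it on the paternal copy, where the RNA is made and genes around it are silenced in cis with the help of repressive histone marks. In the placenta the silenced stretch is wide, while in the embryo it centres on genes such as Cdkn1c, Phlda2 and Slc22a18. RNA-seq counts as used here sum both parental copies, so a level says nothing of which copy was read.

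On the mm10 build, the deposited table places the 8 genes between position 142966822 and position 143502524 of chromosome 7. In order they are Ascl2 (142966822 to 142969264, reverse strand), Cd81 (143052750 to 143067930, forward), Tssc4 (143069368 to 143071087, forward), Kcnq1 (143107254 to 143427042, forward, 16 exons), Kcnq1ot1 (143213111 to 143296547, reverse), Cdkn1c (143458339 to 143461050, reverse), Slc22a18 (143473755 to 143499332, forward) and Phlda2 (143501548 to 143502524, reverse). Kcnq1ot1 is annotated as 1 exon of 83437 bases that lies inside the Kcnq1 gene on the opposite strand, and 1 Kcnq1 exon of 121 bases (143261256 to 143261376) falls within it. That exon makes up 3.99% of the Kcnq1 exon bases. Cd81 shares 30 exon bases with the antisense gene R74862. Whether strand was used in the counting is not given, so the counts of Kcnq1 and Cd81 are uncertain by those overlaps. Without strand, reads of unspliced Kcnq1 RNA could also be counted for Kcnq1ot1, which was not tested.

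The bases just before the start sites are shown for 4 of the genes, because CG pairs are where DNA methylation, which TKO cells cannot maintain, is placed. RefSeq (GRCm38.p6, the mm10 assembly) gave a promoter for 6 of the 8 genes. Cdkn1c and Kcnq1 had no promoter there, so their start sites were not examined. Each sequence is the 250 bases before the RefSeq start on the gene's own strand, 5′ to 3′, with every CG in capitals. The windows are chr7:143296548-143296797 (Kcnq1ot1, reverse strand), chr7:142969265-142969514 (Ascl2, reverse), chr7:143502525-143502774 (Phlda2, reverse) and chr7:143473539-143473788 (Slc22a18, forward).
Kcnq1ot1: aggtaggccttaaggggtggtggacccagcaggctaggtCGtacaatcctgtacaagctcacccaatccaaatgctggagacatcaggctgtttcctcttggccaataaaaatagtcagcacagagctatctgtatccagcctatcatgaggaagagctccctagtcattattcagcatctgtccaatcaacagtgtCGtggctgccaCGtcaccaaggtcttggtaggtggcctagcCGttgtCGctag
Ascl2: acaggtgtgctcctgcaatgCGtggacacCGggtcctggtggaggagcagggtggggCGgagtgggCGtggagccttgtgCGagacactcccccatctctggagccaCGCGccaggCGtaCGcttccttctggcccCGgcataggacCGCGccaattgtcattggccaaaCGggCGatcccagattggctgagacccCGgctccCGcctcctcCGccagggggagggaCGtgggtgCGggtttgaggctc
Phlda2: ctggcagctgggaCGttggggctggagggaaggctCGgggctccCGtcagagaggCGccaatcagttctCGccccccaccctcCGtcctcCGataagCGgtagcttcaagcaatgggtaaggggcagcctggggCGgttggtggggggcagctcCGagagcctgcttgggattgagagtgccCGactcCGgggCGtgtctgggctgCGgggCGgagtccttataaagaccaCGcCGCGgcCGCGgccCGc
Slc22a18: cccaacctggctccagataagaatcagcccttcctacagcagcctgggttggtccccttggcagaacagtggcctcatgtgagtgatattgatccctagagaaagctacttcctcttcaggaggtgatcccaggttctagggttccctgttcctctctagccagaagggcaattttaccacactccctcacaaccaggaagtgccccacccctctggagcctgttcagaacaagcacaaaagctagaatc

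The windows differed widely in CG pairs. Phlda2 had 21, Ascl2 19, Tssc4 17, Cd81 16 and Kcnq1ot1 5, and Slc22a18 had 0, where the median over 32851 promoter windows of the same length was 6.0 and 92.1% held at least 1. Every window stops before the RefSeq start, which is also the deposited start for all but Slc22a18. The Kcnq1ot1 window therefore does not show the imprinting control region as a whole, and the CG content of that region was not measured. The Slc22a18 window ends just before the RefSeq start at 143473789, which is downstream of the deposited start at 143473755. The last bases of that window therefore lie inside the gene as deposited. Searched on both strands, the letters CCAAT stood 3 times in Kcnq1ot1, 3 times in Ascl2, and 1 time each in Tssc4 and Phlda2, against 33.8% of all windows with a match. GGGCGG, a core of SP1 sites that also holds a CG, stood 3 times in Cd81, 2 times in Phlda2 and 1 time in Ascl2 (32.7% of all windows). Short cores for the transcription factors GABPA (CCGGAA, 12.0% of all windows, holding a CG), MAX (CACGTG, 6.02%, holding a CG) and YY1 (GCCATNTT, 3.91%) were also searched, and 0 of the 6 windows held any of these letters. These are letter matches only.

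Total counts per library ran from 13280631 to 15542527, so 3 counts correspond to 0.193 to 0.226 CPM, the count of a gene scaled to a common library total. Such a floor covers counting error only, since PCR copies are not independent molecules. Levels below are CPM after scaling of the library totals by TMM (trimmed mean of M values) factors. Of 23420 genes, 15822 had enough counts to be tested, among them 7 of the 8 domain genes, all but Kcnq1. The targeted genes Dnmt1, Dnmt3a and Dnmt3b were each lower in all 4 TKO libraries than in any WT library. Of 9 markers of pluripotent stem cells, all were present, with a summed level of 3356 to 3756 CPM in WT DMSO, 1916 to 2147 in WT TSA, 4186 to 4541 in TKO DMSO and 1870 to 2196 in TKO TSA.

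**Figure D1:**
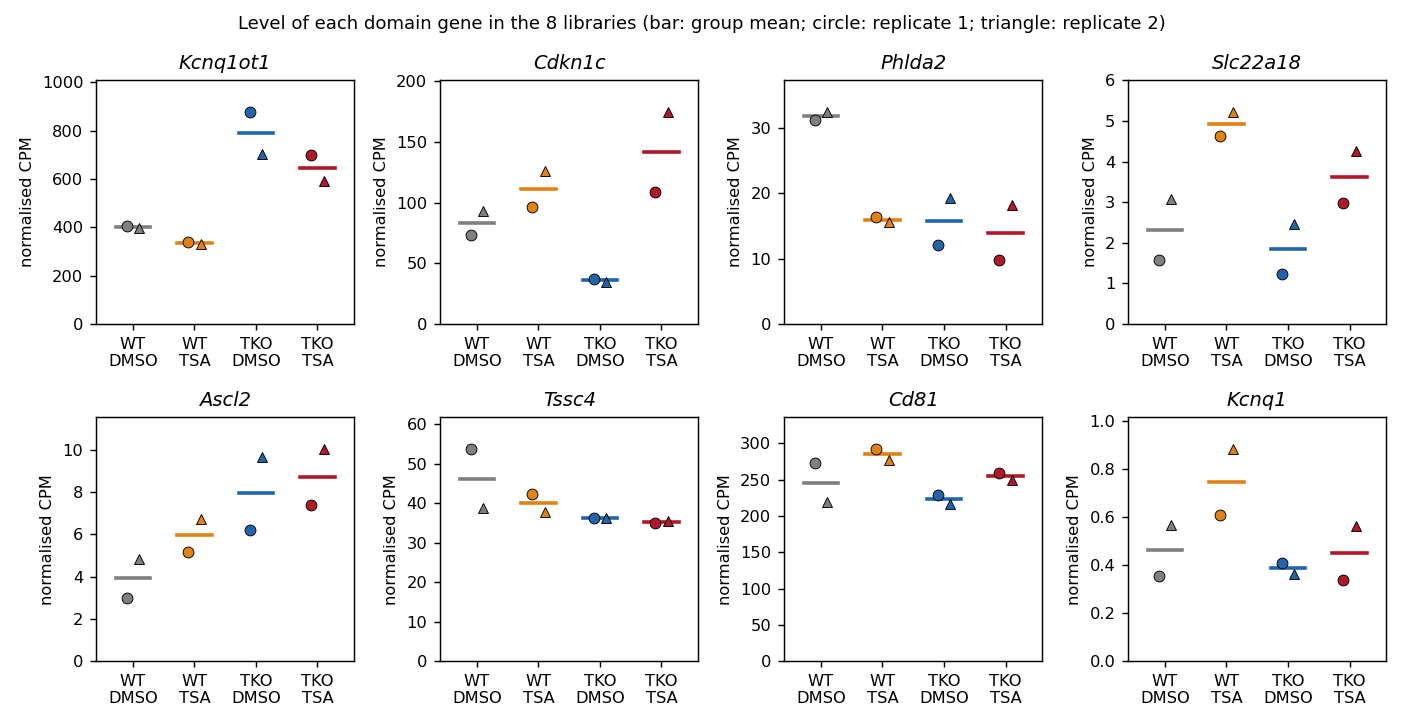
Level of each of the 8 genes (normalised CPM, linear axes starting at 0, a scale of its own per gene) in the 8 libraries, by group, with circles for replicate 1, triangles for replicate 2 and a bar for the group mean. Kcnq1ot1 is higher in all 4 TKO libraries (590 to 878) than in all 4 WT libraries (330 to 404), and Cdkn1c is lowest in the TKO DMSO libraries (35.0 and 37.1).

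Compared per length of exon, the domain's genes lay far apart in the WT DMSO cells. Cd81 was highest at 162 ± 24.8 CPM per kb (SD, n = 2). Phlda2 at 43.2 ± 1.26, Cdkn1c at 42.8 ± 7.38 and Tssc4 at 33.2 ± 7.61 CPM per kb (SD, n = 2 each) followed, and neighbours in this order overlapped between libraries or lay within their spread. Kcnq1ot1 was at 4.81 ± 0.0427, Ascl2 at 2.44 ± 0.818, Slc22a18 at 1.43 ± 0.656 and Kcnq1 at 0.153 ± 0.0491 CPM per kb (SD, n = 2 each), and of these Ascl2 and Slc22a18 overlapped. A per-length level spreads the Kcnq1ot1 reads over its whole annotated 83437 bases. In TKO DMSO the same scale put Phlda2 (21.3 ± 6.88) and Cdkn1c (18.6 ± 0.759) below Tssc4 (26.0 ± 0.0212, SD, n = 2 each), with the range of Phlda2 overlapping both others.

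Kcnq1ot1, the noncoding RNA that silences its neighbours in cis, was higher in cells without the DNA methyltransferases, with or without TSA. In DMSO it was at 404 and 399 CPM in the WT libraries and at 878 and 702 CPM in the TKO libraries. In TSA it was at 338 and 330 CPM in WT and at 699 and 590 CPM in TKO. The lowest TKO library thus stood above the highest WT library, whatever the treatment. The TKO level was 1.97-fold that of WT in DMSO (95% interval 1.65 to 2.36), a log2 fold change of 0.98 ± 0.12 (SE) with an adjusted p of 0.000298 by edgeR's quasi-likelihood test. In TSA it was 1.93-fold (1.61 to 2.31; log2 0.95 ± 0.12, adjusted p 0.000459 by edgeR). Both calls held in every alternative tried.

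The differences with TSA were smaller for Kcnq1ot1. Its mean went from 401 to 334 CPM in WT, 0.832-fold (0.696 to 0.995), which missed the call (log2 -0.26 ± 0.12, edgeR adjusted p 0.0767). That value was -0.06 with total counts (adjusted p 0.657) and -0.12 with upper quartile factors (0.411), and it was called with only the groups compared in the fit (-0.26, 0.0496). In TKO it went from 790 to 644 CPM, 0.815-fold (0.683 to 0.973), which was called by a narrow margin (log2 -0.29 ± 0.12, edgeR adjusted p 0.0474) and was lost in 9 of 15 alternatives. With total counts as the scale it was -0.15 (adjusted p 0.258), and without TKO DMSO replicate 1 or TKO TSA replicate 2 it was -0.13 and -0.18 (adjusted p 0.423 and 0.292). The response to TSA differed between TKO and WT cells by -0.03 ± 0.16 (edgeR adjusted p 0.965), and its interval runs from 0.762-fold to 1.26-fold.

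Cdkn1c (p57KIP2), an inhibitor of cyclin-dependent kinases that restrains growth and is silent on the paternal copy, had the largest fold changes of the 7 tested domain genes for TKO against WT in DMSO, where it was lower, and for TSA in TKO cells, where it was higher. WT DMSO libraries were at 73.0 and 93.3 CPM and TKO DMSO libraries at 37.1 and 35.0 CPM. With TSA, WT libraries were at 96.7 and 126 CPM and TKO libraries at 109 and 175 CPM. The TKO DMSO libraries were the lowest of all, and with TSA the genotypes overlapped. In DMSO, TKO cells had 0.433-fold the WT level (0.314 to 0.600; log2 -1.20 ± 0.21, edgeR adjusted p 0.00272). TSA raised Cdkn1c 3.93-fold in TKO cells (2.84 to 5.45; log2 1.98 ± 0.21, edgeR adjusted p 2.50e-05). Both of these calls held in every alternative tried. In WT cells the TSA difference was 1.34-fold (0.984 to 1.83; log2 0.42 ± 0.20, edgeR adjusted p 0.0992), and it was called under 6 other settings.

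The TSA effect on Cdkn1c was larger in TKO than in WT cells by 1.55 ± 0.29 on the log2 scale (95% interval 1.88-fold to 4.58-fold, edgeR adjusted p 0.0348), where 1.35% of the 15822 genes tested were called for this difference, 0.879% as higher and 0.468% as lower. It was the only call among the 7 domain genes tested, and it did not pass without WT TSA replicate 1 (1.37, adjusted p 0.0875), TKO DMSO replicate 1 (1.59, 0.103), TKO DMSO replicate 2 (1.51, 0.167) or TKO TSA replicate 2 (1.17, 0.0691). With TSA, Cdkn1c in TKO was 1.27-fold WT (0.937 to 1.73; log2 0.35 ± 0.20, edgeR adjusted p 0.258), and without TKO TSA replicate 2 this value was -0.04, while without TKO TSA replicate 1 it was 0.65 and called (0.0304). TKO cells with TSA were above WT cells with DMSO (1.70-fold, log2 0.77 ± 0.20, edgeR adjusted p 0.00656), which did not pass without WT DMSO replicate 1 (0.60, 0.0613) or TKO TSA replicate 2 (0.39, 0.0894).

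The Cip/Kip relatives of Cdkn1c lie elsewhere in the genome and had other values. Cdkn1a (p21) rose with TSA in WT (log2 0.77 ± 0.14, edgeR adjusted p 0.000908) and in TKO (1.04 ± 0.14, 8.11e-05), and Cdkn1b (p27) fell in WT (-1.85 ± 0.19, 3.69e-05) and in TKO (-1.75 ± 0.19, 2.24e-05). Between genotypes in DMSO, Cdkn1a was at 0.07 ± 0.14 and Cdkn1b at 0.02 ± 0.17 on the log2 scale, neither of them called.

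Phlda2, a pleckstrin-homology protein that limits placental growth and is silent on the paternal copy, fell with either change alone. It was at 31.2 and 32.5 CPM in WT DMSO, at 16.4 and 15.6 in WT TSA, and at 12.1 and 19.3 in TKO DMSO, while the TKO TSA libraries were at 9.74 and 18.3. The WT DMSO libraries stood above all 6 others, which overlapped among themselves. TSA in WT gave 0.502-fold (0.339 to 0.747; log2 -0.99 ± 0.26, edgeR adjusted p 0.00815), a call that held in every alternative. TKO in DMSO gave 0.493-fold (0.330 to 0.733; log2 -1.02 ± 0.26, edgeR adjusted p 0.0182), which did not pass without TKO DMSO replicate 1 (-0.72, 0.150) or WT DMSO replicate 1 (-1.07, 0.0594). TSA in TKO cells gave 0.892-fold (0.595 to 1.35; log2 -0.16 ± 0.27), not called, and without TKO TSA replicate 2 it was -0.69 (adjusted p 0.0496). The difference between the TSA effects was 0.83 ± 0.37 (edgeR adjusted p 0.336), so the effects of TSA in the 2 genotypes were not shown to differ.

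Slc22a18, a membrane transporter also silent on the paternal copy, was scarce, with 18 to 77 counts per library. It was at 1.57 and 3.08 CPM in WT DMSO, 4.64 and 5.23 in WT TSA, and 1.23 and 2.47 in TKO DMSO, while the TKO TSA libraries were at 2.98 and 4.27. Within a genotype the TSA libraries stood above the DMSO libraries, and the genotypes overlapped in DMSO. TSA raised it 2.12-fold in WT (1.21 to 3.79; log2 1.10 ± 0.38, edgeR adjusted p 0.0290), which did not pass without WT DMSO replicate 1 (0.68, 0.198), WT TSA replicate 1 (1.18, 0.0550) or WT TSA replicate 2 (1.01, 0.103). In TKO the value was 1.96-fold (1.08 to 3.58; log2 0.98 ± 0.39, edgeR adjusted p 0.0506), just short of the call, and it was called under 10 of 15 alternatives. The difference between these effects was -0.12 ± 0.55.

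Ascl2, a basic helix-loop-helix factor needed by trophoblast precursors, sits on the far side of Kcnq1, 327.3 kb from the Kcnq1ot1 start. It was at 3.00 and 4.86 CPM in WT DMSO, 5.19 and 6.72 in WT TSA, and 6.22 and 9.67 in TKO DMSO, while the TKO TSA libraries were at 7.37 and 10.0, with 42 to 160 counts per library. The WT DMSO libraries were the lowest, and the TKO libraries of both treatments overlapped. It rose 2.02-fold in TKO in DMSO (1.27 to 3.25; log2 1.02 ± 0.31, edgeR adjusted p 0.0371), which did not pass without WT DMSO replicate 1 (0.69, 0.244) or TKO DMSO replicate 2 (0.67, 0.275). With TSA the genotypes differed by 1.46-fold (0.949 to 2.27; log2 0.55 ± 0.29, edgeR adjusted p 0.206). TSA gave 0.61 ± 0.31 in WT and 0.14 ± 0.28 in TKO on the log2 scale, neither called, and the WT value ran from 0.29 without WT DMSO replicate 1 to 0.98 without WT DMSO replicate 2. TKO with TSA was 2.22-fold WT with DMSO (log2 1.16 ± 0.30, edgeR adjusted p 0.00636). That did not pass without WT DMSO replicate 1 (0.83, 0.0621) or TKO TSA replicate 2 (0.92, 0.0512).

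Cd81, a tetraspanin of the cell surface, and Tssc4, a factor of spliceosome assembly, lie beside Kcnq1 and had small differences. Cd81 was at 272 and 219 CPM in WT DMSO, 292 and 277 in WT TSA, and 229 and 217 in TKO DMSO, while the TKO TSA libraries were at 260 and 250, with no call in any comparison. Its TSA values were 1.16-fold in WT (0.985 to 1.36; log2 0.21 ± 0.11) and 1.14-fold in TKO (0.972 to 1.34; log2 0.19 ± 0.11). They were called when libraries were scaled by total counts (0.42 and 0.34), a scale under which the median of all tested genes itself moved to 0.22 in WT and 0.19 in TKO. Without WT DMSO replicate 1 the WT value was 0.38 (edgeR adjusted p 0.0119). Tssc4 was at 53.7 and 38.7 CPM in WT DMSO, 42.4 and 37.8 in WT TSA, and 36.2 and 36.2 in TKO DMSO, while the TKO TSA libraries were at 35.0 and 35.4. Its highest library, WT DMSO replicate 1, sets the mean of that group. TKO with TSA was 0.762-fold WT with DMSO (0.609 to 0.951; log2 -0.39 ± 0.15, edgeR adjusted p 0.0350), a call lost in 7 of 15 alternatives. It did not pass by DESeq2 (0.0513), with total counts (-0.23, 0.208), with upper quartile factors (-0.29, 0.101), with only the groups compared in the fit (-0.39, 0.0644), or without WT DMSO replicate 1 (-0.15, 0.360), TKO TSA replicate 1 (-0.39, 0.101) or TKO TSA replicate 2 (-0.40, 0.0973). TKO in DMSO gave -0.35 ± 0.15 (edgeR adjusted p 0.114), and without WT DMSO replicate 2 this was -0.57 (0.00944).

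Kcnq1, the pore subunit of a potassium channel of heart and inner ear, was barely present. It had 5 and 7 counts in WT DMSO, 10 and 13 in WT TSA, and 6 and 5 in TKO DMSO, while the TKO TSA libraries had 5 and 9, or 0.338 to 0.883 CPM. With the low-count filter removed, its log2 fold changes were 0.68 ± 0.59 (TSA, WT cells), 0.19 ± 0.65 (TSA, TKO cells), -0.21 ± 0.67 (TKO, DMSO) and -0.71 ± 0.57 (TKO, TSA), and no contrast was called. With such errors, a difference of the size seen for Cdkn1c in DMSO (-1.20) was not detectable at this depth.

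**Figure D2:**
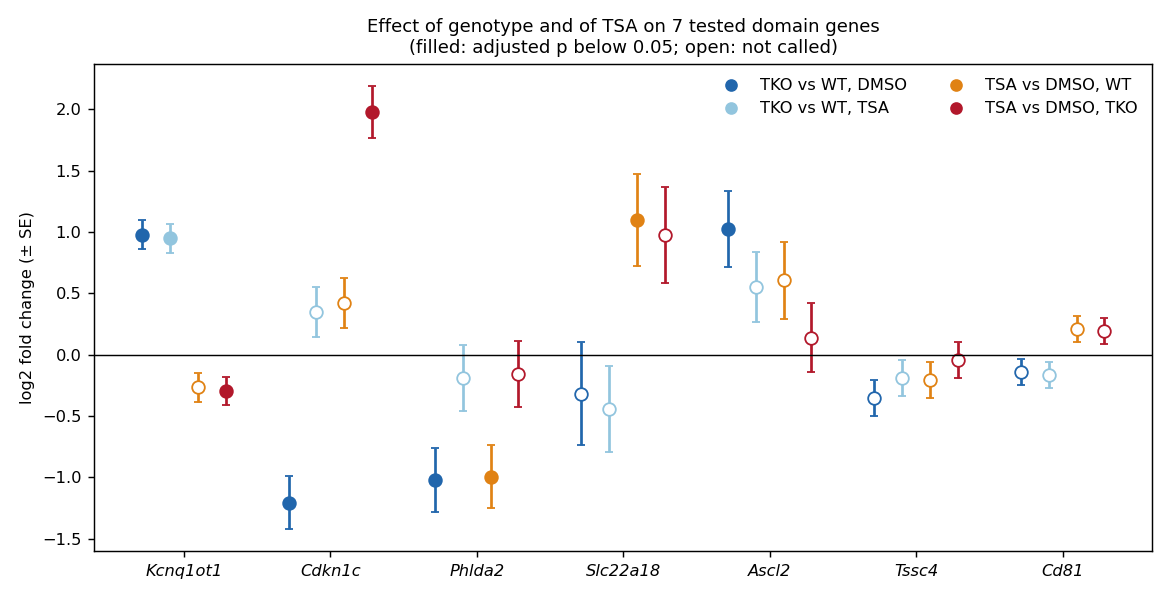
Log2 fold change with its SE (bars) of the 7 tested genes for TKO against WT in DMSO and in TSA and for TSA against DMSO in WT and in TKO, with filled points for an edgeR adjusted p below 0.05. Kcnq1ot1 has similar genotype effects in the 2 treatments (0.98 and 0.95), while the TSA effect on Cdkn1c is 0.42 in WT and 1.98 in TKO.

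Counted together, 4 of the 7 tested domain genes were called for TKO against WT in DMSO, Kcnq1ot1 and Ascl2 higher and Cdkn1c and Phlda2 lower, where 20.4% of all tested genes were called. The background in a single direction was 9.63% higher and 10.7% lower. In TSA, 1 of 7 was called (Kcnq1ot1 higher), against 18.4% of all genes (10.0% higher, 8.38% lower). For TSA against DMSO, 2 of 7 were called in WT (Slc22a18 higher, Phlda2 lower) against 52.8% of all genes (27.0% higher, 25.9% lower), and 2 of 7 in TKO (Cdkn1c higher, Kcnq1ot1 lower) against 58.7% (30.8% higher, 27.9% lower). With total counts or upper quartile factors as the scale, 4 of 7 were called for TSA in WT, so no order against all genes is read from these shares. For TKO with TSA against WT with DMSO, 5 of 7 were called, Kcnq1ot1, Cdkn1c and Ascl2 higher and Phlda2 and Tssc4 lower, near the 61.9% of all genes (31.7% higher, 30.2% lower). The median log2 fold change of the 7 was -0.32 (genotype, DMSO), -0.16 (genotype, TSA), 0.21 (TSA, WT), 0.14 (TSA, TKO) and 0.66 (TKO with TSA), beside -0.01, 0.00, 0.01, 0.04 and 0.00 over all tested genes. Without WT DMSO replicate 1 the calls were 2 for TKO in DMSO and 2 for TKO with TSA, and the latter count was also 2 without TKO TSA replicate 2. The comparisons share libraries: the WT DMSO libraries enter TSA in WT, TKO in DMSO and TKO with TSA.

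**Figure D3:**
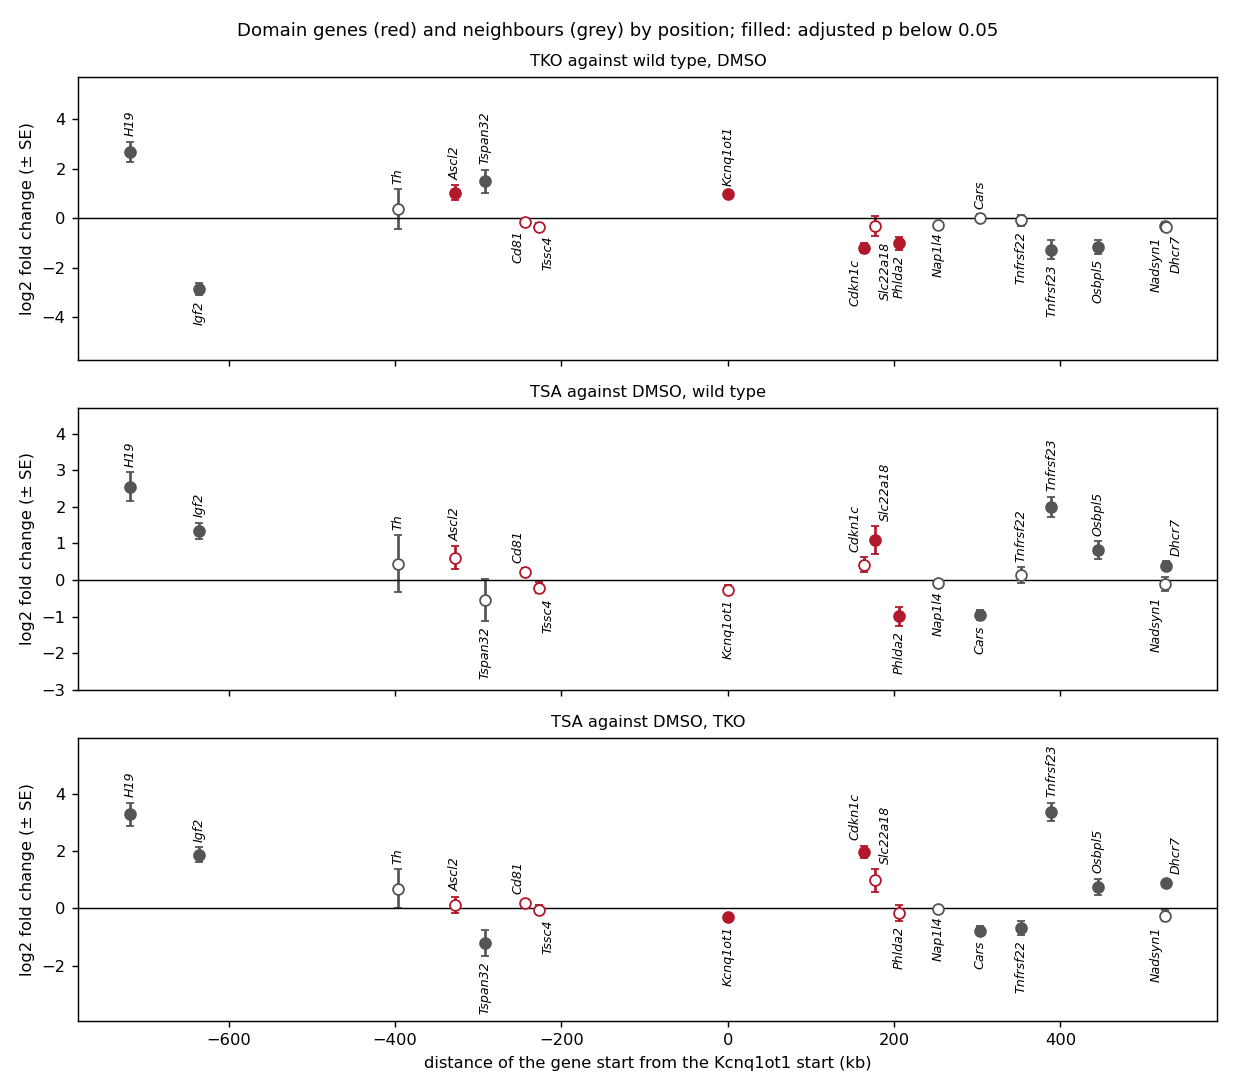
Log2 fold change with its SE (vertical axis) of the 7 tested domain genes (red) and 11 tested neighbours (grey) against the distance of each gene start from the Kcnq1ot1 start in kb, for TKO against WT in DMSO (top), TSA in WT (middle) and TSA in TKO (bottom), with filled points for an edgeR adjusted p below 0.05. In the top panel the called genes on the Cdkn1c side are all lower, and H19 (2.69) and Igf2 (-2.87) at the far left move apart.

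Along the chromosome, TKO against WT in DMSO did not move the genes one way. Starting from Kcnq1ot1, the called genes on one side were Cdkn1c (164.5 kb), Phlda2 (206.0 kb), Tnfrsf23 (389.3 kb) and Osbpl5 (445.4 kb), all lower, and on the other side Tspan32 (291.5 kb) and Ascl2 (327.3 kb), both higher, with Igf2 (635.5 kb) lower and H19 (718.4 kb) higher beyond them. Of 14 listed neighbours 11 were tested, and 2 were called higher and 3 lower in this comparison, 45.5% of those tested against 20.4% of all genes. Tnfrsf23, a decoy receptor for TRAIL, was at -1.29 ± 0.38 (edgeR adjusted p 0.0364, and 0.121 by DESeq2), Osbpl5, an oxysterol-binding protein, at -1.17 ± 0.28 (0.0140) and Tspan32, a tetraspanin, at 1.48 ± 0.48 (0.0498, and 0.129 by DESeq2) on the log2 scale. The values of Nap1l4 (-0.27 ± 0.09), Cars (0.01 ± 0.14), Tnfrsf22 (-0.10 ± 0.22), Nadsyn1 (-0.34 ± 0.20), Dhcr7 (-0.35 ± 0.12) and Th (0.36 ± 0.80) were not called. Without any 1 of the 8 libraries Tnfrsf23 lost its call (adjusted p up to 0.179), as did Tspan32 without any of 5 of them (up to 0.239) and Osbpl5 without WT DMSO replicate 1 (0.128) or TKO DMSO replicate 1 (0.117).

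The adjacent imprinted pair Igf2 and H19 had larger differences between TKO and WT in DMSO than the 7 tested domain genes. Igf2, a fetal growth factor made from the paternal copy, fell from 71.4 to 9.77 CPM in TKO DMSO (log2 -2.87 ± 0.26, edgeR adjusted p 4.67e-05). H19, a noncoding RNA made from the maternal copy, rose from 54.0 to 346 CPM (2.69 ± 0.40, 0.00108). With TSA both rose in WT (Igf2 1.35 ± 0.22, H19 2.55 ± 0.40) and in TKO (1.87 ± 0.26 and 3.29 ± 0.40), each called. Of the 11 tested neighbours, TSA raised 5 and lowered 1 in WT and raised 5 and lowered 3 in TKO (5 calls without TKO DMSO replicate 1 or TKO TSA replicate 1). These shares of 54.5% and 72.7% stand beside 52.8% and 58.7% of all genes. Among the called neighbours were Tnfrsf23 (2.00 ± 0.28 in WT and 3.38 ± 0.32 in TKO) and Cars, a cysteinyl-tRNA synthetase (-0.95 ± 0.14 and -0.77 ± 0.14). For the difference between the TSA effects, edgeR called 0 of 11 neighbours, where 1.35% of all tested genes were called. Of the 11, 3 had an unadjusted edgeR p below 0.05, and DESeq2 also called 0. With so low a share over all genes, 0 calls do not show that the effects were equal.

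Transcripts of other imprinted loci with maternal methylation, of which 16 of 17 were tested, were called more often in the higher direction. In TKO DMSO 7 were higher and 2 lower, 56.2% of the list against 20.4% of all genes, with a median log2 fold change of 0.50, and the calls were 5 without WT DMSO replicate 1 and 3 without TKO DMSO replicate 1. Peg13, a noncoding RNA, rose by 1.30 ± 0.18 (edgeR adjusted p 0.000629) and Nap1l5 by 1.24 ± 0.34 (0.0235, and up to 0.157 without WT DMSO replicate 1 or TKO DMSO replicate 1), beside 0.98 for Kcnq1ot1, while Nnat fell by 1.87 (SE 0.26, 0.00075). With TSA 10 were higher and 1 lower in WT, and 9 higher and 2 lower in TKO, and without WT DMSO replicate 2 the calls in WT were 6. These are 68.8% of the list in each genotype, beside 52.8% of all genes in WT (27.0% higher) and 58.7% in TKO (30.8% higher). Peg10, a gene derived from a retrotransposon, was at 1.95 ± 0.12, Usp29 at 1.46 ± 0.28 and Plagl1, a zinc finger factor, at 1.44 ± 0.25 for TSA in WT, all called, where Kcnq1ot1 was at -0.26. For the difference between the TSA effects, 2 of the 16 were higher and 0 lower, or 12.5% against 1.35% of all genes. Nnat was among them (1.77, beside 1.55 for Cdkn1c) and lost the call in 6 of 14 alternatives. For TKO in TSA 6 were higher and 0 lower (37.5% against 18.4% of all genes), and 3 higher without WT TSA replicate 1.

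The genes of the machinery that keeps imprints and represses chromatin gave few calls between genotypes in DMSO. Of 17 tested, edgeR called 0, against 20.4% of all genes. Of these 17, 3 had an unadjusted edgeR p below 0.05, and DESeq2 called 1. There was also 1 call with total counts, with upper quartile factors, with no filter on low counts and without WT DMSO replicate 2. With TSA 2 rose and 11 fell in each genotype, or 76.5% called, against 52.8% of all genes in WT (25.9% lower) and 58.7% in TKO (27.9% lower). In WT Zfp57, which binds methylated imprinting control regions, was at -1.05 ± 0.15 (edgeR adjusted p 0.00026) and its partner Trim28 at -0.75 ± 0.08 (5.87e-05), and Dppa3, which protects imprints in the early embryo, was at 1.50 ± 0.24 (0.000482). For TKO in TSA 3 were higher and 0 lower, or 17.6% called, near the 18.4% of all genes (10.0% higher). That count moved in both directions when single libraries were left out.

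Markers of other cell types moved with the same groups, and in bulk RNA fewer cells of a type and less RNA per cell cannot be told apart. Of 13 trophoblast markers, the lineage in which Ascl2, Phlda2 and Cdkn1c are best known, 12 were matched in the table and 9 were tested. TSA raised 8 of the 9 in each genotype, and 5 of the 9 were lower in TKO DMSO (3 without WT DMSO replicate 1 or TKO DMSO replicate 1). Of all genes, TSA raised 27.0% in WT and 30.8% in TKO, and 10.7% were lower in TKO DMSO. The markers' summed level was 314 to 416 CPM in WT DMSO, 847 to 892 in WT TSA, 72.0 to 101 in TKO DMSO and 329 to 367 in TKO TSA. Krt18, which other epithelia also express, led in the WT libraries (247 to 679 CPM) and Tfap2c in the TKO libraries (35.6 to 211 CPM). Krt18 was at 351 and 247 CPM in WT DMSO and at 28.4 and 38.8 in TKO DMSO, most of the difference in the sum. Tfap2c was at 35.5 and 40.6 CPM in WT DMSO and at 35.6 and 51.9 in TKO DMSO. Tpbpa and Prl2c2, which mark differentiated trophoblast, were at 0 in all 8 libraries. Cdkn1c and the trophoblast sum were both lowest in TKO DMSO and both higher with TSA. In TSA the sum was lower in TKO than in WT, while Cdkn1c overlapped between the genotypes. Krt18 carries that lower sum, at 679 and 622 CPM in WT TSA and at 56.3 and 93.9 in TKO TSA. Of the 9 tested markers, 3 were higher and 3 lower for TKO in TSA (10.0% and 8.38% of all genes). Phlda2 fell with TSA in WT, and Ascl2 was higher in TKO DMSO. The part of such cells in the Cdkn1c result was not tested.

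Of 10 primitive endoderm markers, 6 were higher in TKO DMSO and 0 lower (9.63% of all genes were higher). Their sum was 258 to 301 CPM in WT DMSO, 297 to 322 in WT TSA, 537 to 570 in TKO DMSO and 475 to 535 in TKO TSA. It was thus higher in the same libraries as Kcnq1ot1, which rests largely on Lama1. Lama1 led in the TKO libraries (256 to 352 CPM, against 68.4 to 99.6 in WT). Col4a1 led in the WT libraries (142 to 215 CPM) and overlapped between genotypes (166 to 204 in TKO). The sum of 12 fibroblast or mesenchyme markers was 917 to 1214, 683 to 959, 646 to 650 and 409 to 485 CPM in the same order of groups. Abundant genes carry this sum, with Fn1, Tagln or Vim highest in each library, and it hides markers that rose. Of 11 tested, TSA raised 7 and lowered 1 in TKO (30.8% and 27.9% of all genes). In WT it raised 4 and lowered 4 (27.0% and 25.9%). In TKO DMSO 0 were higher and 5 lower (10.7% of all genes were lower). The sum of 7 mesoderm markers was 11.3 to 18.3, 11.9 to 16.8, 6.84 to 7.52 and 11.0 to 12.1 CPM in the order given. Its low value in TKO DMSO rests on T, at 12.8 and 6.56 CPM in WT DMSO and 0.274 and 0.509 in TKO DMSO. Kdr went the other way, from 2.71 and 2.27 to 4.58 and 4.07 CPM. Of 5 tested, 1 was higher and 1 lower in TKO DMSO (9.63% and 10.7% of all genes). The part of the cells that these markers stand for in the results on Kcnq1ot1 and Phlda2 was not tested.

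Genes with the most similar pattern were found by the root mean square distance between log2 CPM values centred over the 8 libraries, among 14420 genes. For Kcnq1ot1 these were Ikzf1 (distance 0.149), Sh3d19 (0.151) and Nespas (0.158). Nespas, an antisense noncoding RNA of the imprinted Gnas locus on chromosome 2, had group means of 38.2, 29.7, 61.7 and 47.4 CPM in WT DMSO, WT TSA, TKO DMSO and TKO TSA. For Cdkn1c the closest were Antxr1 (0.220), Ddit4 (0.232) and Hmgn5 (0.238). Ddit4 had group means of 52.6, 80.3, 33.5 and 114 CPM. For Ascl2 they were Grasp (0.147), Casz1 (0.148) and Cyp2s1 (0.153), and for Phlda2 Prlr (0.226), Vps9d1 (0.257) and Med12 (0.260). These distances rest on 8 libraries that share 4 groups and are given as a description.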

How the data were processed

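The authors deposited raw read counts per gene with exon coordinates and lengths for 8 libraries. Per the submitters' processing notes, TopHat2 2.0.13, featureCounts 1.4.5-p1, edgeR 3.22.3 and mm10 were used; strand setting and multi-mapping are not given in the sources used here. The other 118 of 126 samples were not analysed here. The test was the quasi-likelihood test of edgeR 4.0.16, run in R 4.3.3 (filterByExpr with a minimum count of 10, TMM factors, 1 mean per group, 4 residual degrees of freedom). Tests were two-sided, with Benjamini-Hochberg adjustment over 15822 genes for each of 6 contrasts, and calls were made below 0.05. SEs are approximate, derived from F. An exact permutation test of 2 against 2 libraries has a smallest p of 0.333, so p-values rest on a spread shared across genes (common biological coefficient of variation 10.3%). Replicates differed beyond sampling noise (chi-square per degree of freedom 5.28 to 12.2). Scripts were tested on simulated data. Alternatives were DESeq2 size factors, total counts, upper quartile factors, no filter, DESeq2 1.42.0, only the groups compared, a replicate block and leaving out each library. The members and lists were chosen with earlier results of these data known. Named genes are the members, all tested neighbours, the targeted and Cip/Kip genes, up to 3 called genes of largest change per list for TKO in DMSO and TSA in WT, and the 3 most similar genes for 4 members.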

Additional observations from a re-analysis of the deposited data

Results flagged for a closer look

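The TSA effect on Cdkn1c differed between the genotypes by a test of the difference itself. The log2 value was 1.55 ± 0.29 (SE, edgeR adjusted p 0.0348), from 0.42 in WT and 1.98 in TKO cells, and both TKO TSA libraries were above both TKO DMSO libraries. Leaving out any of 4 libraries took the adjusted p above 0.05, with values between 1.17 and 1.59 in those cases.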

How the results depend on the processing

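Of 623 member fold changes under the alternatives, 538 kept direction and side of the threshold, 31 gained the call, 31 lost it and 23 changed sign, none of the 23 with an adjusted p below 0.05 (smallest 0.382, largest absolute log2 value 0.46). Scaling by total counts or upper quartiles moved the median log2 TSA effect of all genes to 0.22 or 0.16 in WT, 0.19 or 0.11 in TKO and 0.17 or 0.11 for TKO with TSA, and put Tssc4 for TSA in TKO at 0.11 or 0.036. Domain genes called for TSA in WT were 2, but 4 under each of those scalings. Leaving out a library gave 1 to 3 calls for TSA in WT, 1 to 3 for TSA in TKO, 2 to 5 for TKO in DMSO, 1 to 2 for TKO in TSA, 2 to 6 for TKO with TSA against WT with DMSO and 0 to 1 for the interaction. The interaction called 213 genes, but 488 with no filter, 394 by DESeq2, 633 with the block and 10 to 410 with a library left out; for TKO in DMSO the count fell from 3221 to 1703, 1806 and 1458 without WT DMSO replicate 1, TKO DMSO replicate 1 and TKO DMSO replicate 2, and for TKO in TSA from 2910 to 941 and 1356 without WT TSA replicate 1 and TKO TSA replicate 2. Leaving out a library leaves fewer samples; otherwise the cause was not tested. With the replicate number as a block, 5 domain genes were called for TSA in WT, adding Kcnq1ot1 (-0.27, adjusted p 0.0289), Cdkn1c (0.42, 0.0178) and Ascl2 (0.62, 0.0202), and 2 for TKO in TSA, adding Ascl2 (0.54, 0.0429). It also added Slc22a18 for TSA in TKO (0.98, 0.0102), and 3 silencing genes were called for TKO in DMSO; same-numbered libraries correlated at 0.0673 to 0.325 across genes, and the labels do not say what the number marks. Sign changes with a library left out were Tssc4 for TSA in WT (-0.43 to 0.048), Ascl2 for TSA in TKO (-0.16 to 0.48), Phlda2 for TSA in TKO (-0.69 to 0.22), Cd81 for TKO in DMSO (-0.29 to 0.0049), Slc22a18 for TKO in DMSO (-0.90 to 0.23), Phlda2 for TKO in TSA (-0.71 to 0.19), Cdkn1c for TKO in TSA (-0.036 to 0.65), Cd81 for TKO with TSA (-0.10 to 0.21), Slc22a18 for the interaction (-0.67 to 0.46), Tssc4 for the interaction (-0.079 to 0.38), Cd81 for the interaction (-0.17 to 0.13) and Kcnq1ot1 for the interaction (-0.18 to 0.14). Of 1273 called values of other named genes under the alternatives, 1172 stayed called, 101 lost the call and 0 changed sign; these alternatives and the list counts were added after seeing the data. Depth limits Kcnq1, Slc22a18 and Ascl2 most. Groups left with 1 library are assumed to vary like the others.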
